A study of Mus musculus with 24 samples.

Results

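Hepatocytes from adult BALB/c mouse liver grew in Matrigel into organoids of 3 shapes in primary culture, which are called grape-like, intermediate and round-like hepatocyte organoids (Hep-Orgs). The comparison described here is that of the library Grape_like_hep_org with the library Round_like_hep_org, with Intermediate_hep_org beside them. It covers 2 of the 24 libraries of the series, and 12417 of the 20729 genes listed in the table entered it, by an FPKM of at least 1 in either library. FPKM divide the fragments of a gene by its length and by the total of the library. They do not adjust for differences in composition between libraries, and other scalings are given at the end.

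The hepatocytes had been isolated on Percoll and depleted of EpCAM-positive cells with beads before culture. All 3 shapes arose in Hep-Med, a medium with R-spondin1, the GSK3 inhibitor CHIR99021, EGF, FGF7, FGF10, HGF, the TGF-beta receptor inhibitor A83-01, the ROCK inhibitor Y-27632, nicotinamide, N-acetylcysteine, gastrin and B27. The list of its components in the supplement also holds the Notch inhibitor DAPT and dexamethasone, while the study's text places the shapes before both were added, so their presence here is uncertain. By the study's methods, organoids of each shape at P0 were picked out, and Smart-Seq, which amplifies full-length cDNA, was used on them. The labels give neither passage nor number of organoids and animals behind a library, and they describe a poly(A) preparation from 1 µg of RNA for all samples. Each shape is 1 library, so no test of grape-like against round-like exists, and every difference below describes these libraries only. The question was how hepatocyte and cholangiocyte genes are expressed in organoids of each shape.

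Hepatocytes secrete most proteins of blood plasma, assemble lipoproteins, and carry the cytochrome P450 enzymes of drug and steroid metabolism. Cholangiocytes line the bile ducts as a polarized epithelium with tight junctions, keratins 7 and 19 and apical mucin. Hepatocytes in culture or after injury are known to lose hepatocyte genes and to take up genes of the bile duct epithelium. Liver digests also hold Kupffer cells, which are the resident macrophages, sinusoidal endothelial cells and stellate cells.

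The library totals behind the FPKM were 40035109 fragments for grape-like, 40375837 for intermediate and 40287144 for round-like organoids. Fragments per gene could be worked back as whole numbers. The 95% intervals given below for single genes are exact Clopper-Pearson intervals for the fragments in grape-like relative to round-like organoids. No molecular identifiers are described, so these intervals hold counting error alone and say nothing of how organoids or cultures vary. Differences are given as the log2 ratio of FPKM + 1, grape-like to round-like, and values follow the order grape-like, intermediate and round-like. The intervals are on fragments without the added 1, so a log2 ratio can lie outside its interval. The 2 genes just inside the filter were Hykk, with 0.896, 0.602 and 1.00 FPKM, and Ugt1a6b, with 1.00, 0.421 and 0.509 FPKM. Just outside were Serpina11, with 0.999 FPKM in grape-like and 0.0662 FPKM in round-like organoids, and Map1b, with 0.784 and 0.999 FPKM.

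Of the 12417 genes, 1629 (13.1%) were at least 2-fold higher in grape-like and 1111 (8.95%) at least 2-fold higher in round-like organoids. At 4-fold, the numbers were 403 (3.25%) and 270 (2.17%). The other 9677 genes (77.93%) lay within 2-fold, and the median log2 ratio over all genes was -0.13. The Spearman correlation across these genes was 0.852 between grape-like and round-like, 0.899 between grape-like and intermediate, and 0.944 between intermediate and round-like organoids. Genes of 1 library are not independent replicates, and these correlations only describe the libraries. The plot of both libraries against each other shows the hepatocyte, macrophage and biliary lists apart from the diagonal.

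**Figure D1:**
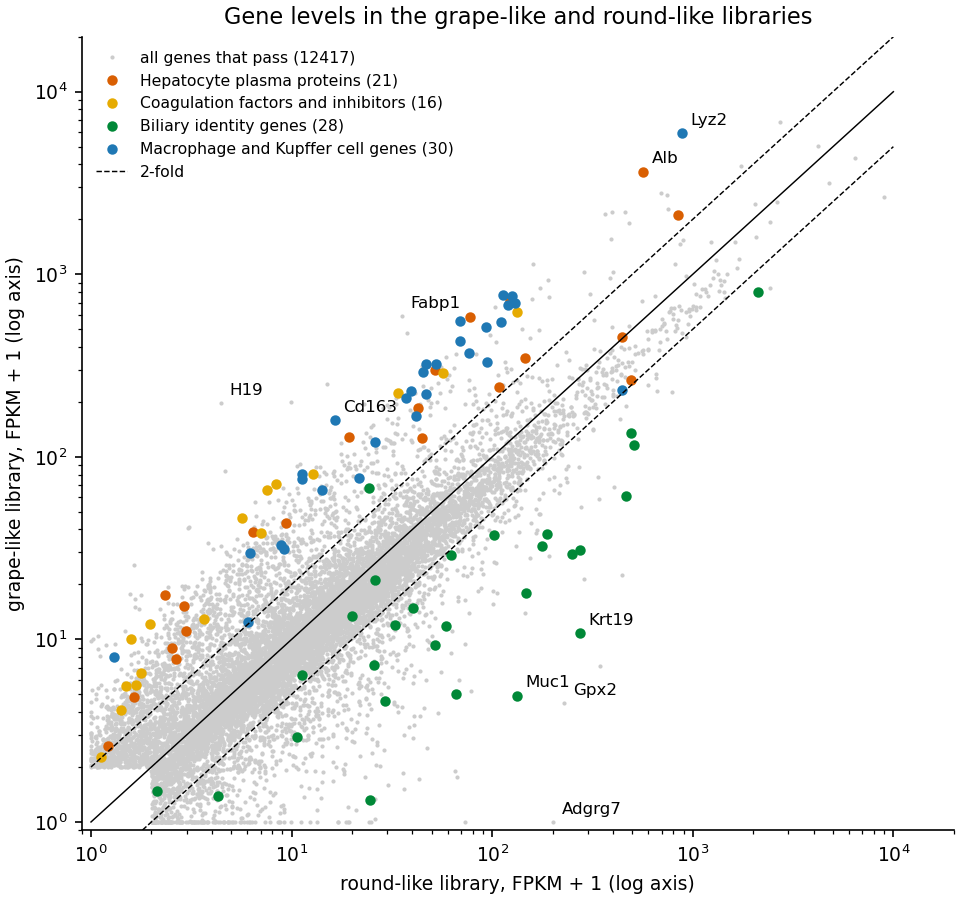
FPKM + 1 of 12417 genes in the round-like (x) and the grape-like library (y), both on log axes, with 4 gene lists in colour. The solid line marks equal levels and the dashed lines a 2-fold difference. Most plasma protein, coagulation and macrophage genes lie above the upper dashed line and most biliary genes below the lower one, with Adgrg7 at 0 in the grape-like library.

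The labelled cell type was checked first against marker genes. The 8 hepatocyte markers (Alb, Ttr, Apoa1, Hnf4a, Cps1, Serpina1a, Fgb and Ahsg) summed to 5779 FPKM in grape-like, 10273 FPKM in intermediate and 1389 FPKM in round-like organoids. Of these, 5 were at least 2-fold higher in grape-like organoids and 0 in round-like organoids. The 8 cholangiocyte markers (among them Krt7, Krt19, Epcam, Sox9, Spp1 and Cldn4) summed to 877 FPKM, 3457 FPKM and 2856 FPKM, and 8 of 8 were at least 2-fold higher in round-like organoids. So each library held RNA of both programs, and none was at 0 for a whole marker list of either type.

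Markers of other liver cells were higher in grape-like organoids as well. The 12 macrophage markers, among them Lyz2, Adgre1, Clec4f and C1qa, summed to 10641 FPKM, 3027 FPKM and 1646 FPKM, and 12 of 12 were at least 2-fold higher in grape-like organoids. In sum, these 12 markers exceeded the 8 hepatocyte markers in both the grape-like and the round-like library. That order rests on Lyz2, which alone had 5942 FPKM in grape-like and 887 FPKM in round-like organoids. The 6 markers of sinusoidal endothelium summed to 71.3, 29.3 and 12.6 FPKM, and the 6 stellate cell markers to 1315, 320 and 281 FPKM, with 6 of 6 at least 2-fold higher in grape-like organoids in each. Erythroid, neutrophil and lymphocyte markers summed to under 10 FPKM in every library, with Hba-a1, Hbb-bs, S100a8, S100a9, Ly6g and Cd79a at 0 in grape-like or round-like organoids. In such pooled material, fewer cells of a type and less RNA per cell cannot be told apart. The part of other cell types in the differences below was not tested, and their markers move in the same direction as the hepatocyte genes.

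**Figure D2:**
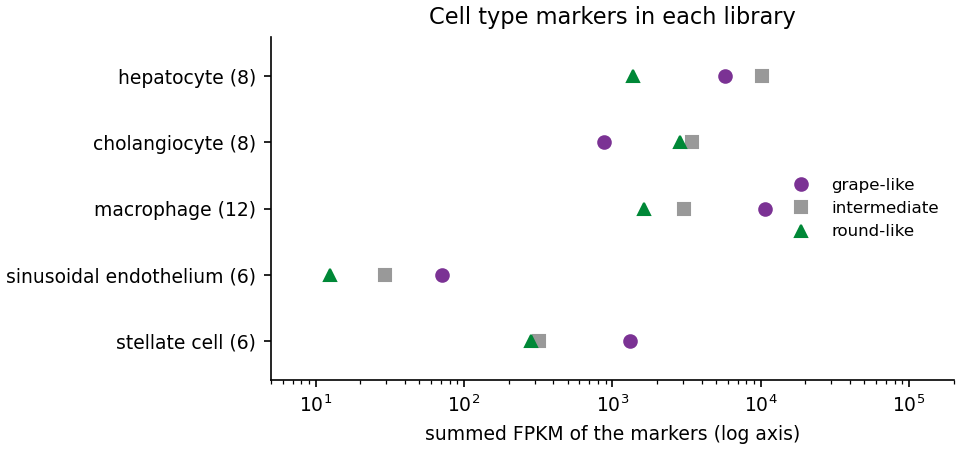
Summed FPKM (x, log axis) of the markers of 5 cell types in the 3 libraries, with the number of markers in parentheses. Hepatocyte markers were highest in the intermediate library at 10273 FPKM, cholangiocyte markers lowest in the grape-like library at 877 FPKM, and macrophage, endothelial and stellate markers highest in the grape-like library.

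The 15 genes with the largest ratio towards grape-like organoids comprised hepatocyte and macrophage genes together with 1 imprinted noncoding RNA. H19, a noncoding RNA of fetal liver, stood first with 195 FPKM in grape-like, 12.9 FPKM in intermediate and 3.43 FPKM in round-like organoids, a log2 ratio of 5.47. On fragments, its log2 ratio had an interval of 5.67 to 6.0. Only grape-like organoids were high, since the intermediate library lay closer to the round-like one.

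Drug-metabolizing enzymes followed. Cyp2c29 had 200, 136 and 8.97 FPKM (log2 ratio 4.33), and Cyp3a11, the main inducible P450 of mouse liver, had 251, 123 and 14.1 FPKM (log2 ratio 4.06). The carboxylesterase Ces2a had 82.7, 683 and 3.65 FPKM (log2 ratio 4.17), so that the intermediate library exceeded the grape-like one. Fabp1, the fatty acid carrier of the hepatocyte cytosol, had 590, 628 and 34.6 FPKM (log2 ratio 4.05). For Cyp2c29, Cyp3a11 and Fabp1, grape-like and intermediate organoids were alike in being high and round-like organoids low.

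Apoa1, the main protein of high-density lipoprotein, had 474, 384 and 36.4 FPKM (log2 ratio 3.67). The hepatokine gene Fgl1 had 39.8, 13.7 and 2.05 FPKM (log2 ratio 3.74), Kng1, the kininogen, 65.1, 89.0 and 6.51 FPKM (3.14), and Thrsp, a lipogenic factor, 14.0, 3.80 and 0.653 FPKM (3.18). Cyp2c55, Ces1c and Rbp2 complete the hepatocyte and enterohepatic genes, with log2 ratios of 3.96, 3.31 and 3.32. Rbp2 was highest in the intermediate library at 59.9 FPKM, against 15.6 and 0.665 FPKM. The other 3 genes are known from leukocytes. The signalling regulator Rgs1 had 40.3, 7.17 and 2.08 FPKM, the ribonuclease Ear1 had 16.6, 2.29 and 0.557 FPKM, and Cd163, the haemoglobin scavenger receptor of macrophages, had 158, 25.9 and 15.4 FPKM. In these 3, the intermediate library was closer to round-like than to grape-like organoids.

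The 15 genes with the largest ratio towards round-like organoids were mostly genes of ductal and intestinal epithelium, and 4 of them had no fragment in the grape-like library. Adgrg7, an adhesion receptor, had 0, 2.71 and 201 FPKM (log2 ratio -7.66), from at least 25440 fragments in round-like organoids. Taking 3 fragments as the floor of a library, it was at least 8427-fold higher in round-like than in grape-like organoids. Olfm4, a secreted glycoprotein that marks intestinal stem cells and reactive ducts, had 0, 7.43 and 72.2 FPKM and was at least 1327-fold higher. Arl14, with 0, 0.0206 and 18.2 FPKM, was at least 292-fold higher. For all 3 genes, the intermediate library was far below the round-like one.

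Reg3g, an antibacterial lectin of inflamed epithelium, was also at 0 in grape-like organoids, but its 1162 FPKM in the intermediate library exceeded the 24.0 FPKM of round-like organoids. Gpx2, a glutathione peroxidase of epithelia, had 3.46, 51.5 and 228 FPKM (log2 ratio -5.68, interval on fragments -6.29 to -5.81). Muc1, the apical mucin, had 3.91, 48.5 and 132 FPKM (log2 ratio -4.76), and Krt19 had a log2 ratio of -4.65. Fxyd3, a regulator of the sodium pump, and the potassium channels Kcnq1 and Kcnn4 had log2 ratios of -5.25, -4.65 and -4.30 and the transmembrane protease Tmprss4 of -5.09. Wfdc2, a secreted protease inhibitor, had 21.6, 210 and 442 FPKM. Slc28a3, a nucleoside transporter, was at 0.0438, 14.5 and 25.2 FPKM and Ckmt1, mitochondrial creatine kinase, at 0.861, 31.8 and 35.0 FPKM. Flrt3 stood out by an intermediate level of 0.639 FPKM, close to 0.506 FPKM in grape-like and far from 35.2 FPKM in round-like organoids.

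**Figure D3:**
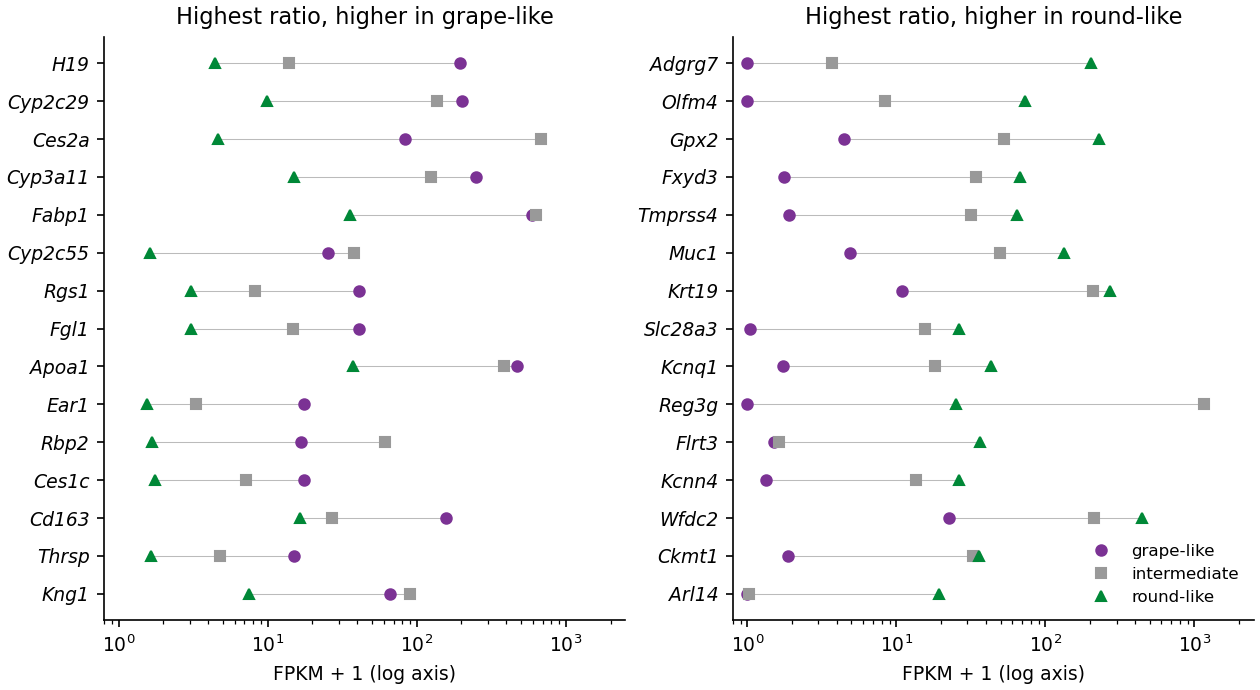
FPKM + 1 (x, log axis) in each of the 3 libraries for the 15 genes with the largest ratio in each direction. In the left panel the intermediate library exceeds the grape-like one for Ces2a, Fabp1, Cyp2c55, Rbp2 and Kng1, and in the right panel it exceeds the round-like one for Reg3g only.

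Promoters of 4 genes are shown as examples of letters known from liver and epithelial factors. Fabp1, Muc1 and Fxyd3 come from the genes above, and Alb is the hepatocyte marker. The sequences are the 250 bases before the start of the gene on its own strand, from RefSeq on GRCm38.p6, and capitals mark the matches listed below. Alb lies at chr5:90460620-90460869 (plus strand), Fabp1 at chr6:71199629-71199878 (plus), Muc1 at chr3:89228806-89229055 (plus) and Fxyd3 at chr7:31076698-31076947 (minus).
Alb: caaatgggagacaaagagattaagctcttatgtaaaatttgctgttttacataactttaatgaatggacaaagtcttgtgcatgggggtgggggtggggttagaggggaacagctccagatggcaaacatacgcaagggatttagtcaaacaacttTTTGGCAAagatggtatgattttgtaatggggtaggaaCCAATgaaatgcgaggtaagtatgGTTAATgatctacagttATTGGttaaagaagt
Fabp1: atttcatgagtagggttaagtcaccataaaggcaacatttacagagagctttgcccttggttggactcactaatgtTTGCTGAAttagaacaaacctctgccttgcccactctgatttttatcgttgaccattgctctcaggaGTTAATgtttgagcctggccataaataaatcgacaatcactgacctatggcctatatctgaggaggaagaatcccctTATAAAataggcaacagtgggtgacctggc
Muc1: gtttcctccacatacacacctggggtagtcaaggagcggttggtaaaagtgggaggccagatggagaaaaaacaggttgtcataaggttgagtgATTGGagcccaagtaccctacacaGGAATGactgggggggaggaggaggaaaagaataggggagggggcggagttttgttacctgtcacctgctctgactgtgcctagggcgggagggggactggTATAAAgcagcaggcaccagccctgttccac
Fxyd3: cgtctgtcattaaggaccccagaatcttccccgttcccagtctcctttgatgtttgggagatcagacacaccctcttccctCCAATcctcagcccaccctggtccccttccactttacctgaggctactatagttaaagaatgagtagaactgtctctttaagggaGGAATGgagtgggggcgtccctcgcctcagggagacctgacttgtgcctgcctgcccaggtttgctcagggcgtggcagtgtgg

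In Alb, capitals mark a C/EBP match from 94 to 87 bases before the start, CCAAT matches from 56 to 52 and from 15 to 11, and an HNF1 match from 32 to 27. Fabp1 held a C/EBP match from 174 to 167, an HNF1 match from 107 to 102 and a TATA box from 30 to 25 bases before the start. Muc1 held CCAAT from 156 to 152, a TEAD match from 132 to 127 and a TATA box from 31 to 26. Fxyd3 held CCAAT from 169 to 165 and a TEAD match from 84 to 79. No match overlapped another in these windows.

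The same letters were counted on both strands in the promoters of the 100 genes with the largest ratio in each direction, among the 9862 genes with a promoter sequence. The TEAD letters GGAATG were in 25 of 100 promoters of genes higher in round-like organoids, among them Fxyd3, Muc1, Slc28a3, Kcnn4 and Ckmt1. They were in 6 of 100 on the grape-like side and in 12.6% of all 27025 promoters. The C/EBP letters TTGCNNAA were in 18 of 100 on the grape-like side, 11 of 100 on the round-like side and 9.55% of all promoters. For the HNF1 letters GTTAAT, the numbers were 11, 4 and 6.52%, and for the HNF4 letters AAAGTCC 9, 5 and 3.65%. For TATAAA they were 16, 14 and 13%, for CCAAT 38, 35 and 34.5%, for the AP-1 letters TGANTCA 7, 7 and 6.87%, and for the ETS core CCGGAAG 1, 3 and 7.05%. The 9862 promoters from which the genes were drawn differ from all promoters. They held the TEAD letters in 10.6%, C/EBP in 7.82%, HNF1 in 3.92%, HNF4 in 3.68%, TATAAA in 6.74%, CCAAT in 36.8%, AP-1 in 4.58% and the ETS core in 13.9%. Against these, TATAAA and the C/EBP, HNF4 and AP-1 letters were more frequent and the ETS core less frequent on both sides. The HNF1 letters were more frequent on the grape-like side and near this share on the round-like side. The TEAD letters were more frequent on the round-like side only. The median GC content was 50.6% on the grape-like side, 55.2% on the round-like side, 52.0% in all promoters and 59.6% in the 9862 promoters, so both sides were poorer in GC than the genes they were drawn from. A match is a description of letters and no evidence of binding.

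Secreted hepatocyte proteins were higher in grape-like organoids almost without exception. Of 21 plasma protein genes that passed, 19 were at least 2-fold higher in grape-like organoids and 0 in round-like organoids, with a median log2 ratio of 1.91. Itih3 and Itih4 had log2 ratios of 2.91 and 2.73. Fetuin A (Ahsg) had 712, 1750 and 122 FPKM, and transferrin (Trf) 2109, 5272 and 843 FPKM. Albumin (Alb) was among the 10 most abundant genes of the grape-like library with 3649 FPKM, from at least 100373 fragments, but was highest in the intermediate library with 5729 FPKM. The fetal albumin relative Afp had 584, 456 and 76.8 FPKM. The intermediate library exceeded both others for 16 of the 21 genes. The 2 genes within 2-fold, chosen after their values were seen, were Ttr, with 263, 788 and 492 FPKM, and Ambp, with 450, 1236 and 445 FPKM.

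All 16 coagulation genes that passed were at least 2-fold higher in grape-like organoids, with a median log2 ratio of 2.39. The fibrinogen chains Fga, Fgb and Fgg had log2 ratios of 2.33, 2.22 and 2.71. Fgb was the most abundant of them with 620, 1474 and 132 FPKM. Plasminogen (Plg) had 79.1, 157 and 11.8 FPKM, and the inhibitors Serpinf2 and Serpind1 had log2 ratios of 3.09 and 3.03. For 12 of the 16 genes, intermediate organoids were above both others.

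Among 11 apolipoprotein and lipoprotein assembly genes, 10 were at least 2-fold higher in grape-like organoids, with a median of 2.47. Apoe, which macrophages and stellate cells also express, had 2201, 1205 and 396 FPKM. Apob, the scaffold of very low density lipoprotein, had 42.1, 53.8 and 6.12 FPKM. Apoa2 (log2 ratio 3.05) and Apom (3.07) were close to Apoa1 in their ratio, while Apoc1 had a log2 ratio of 1.67.

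Complement and acute phase genes leaned to grape-like organoids, with exceptions. Of 26 that passed, 18 were at least 2-fold higher in grape-like and 2 in round-like organoids, with a median of 1.49. The pentraxin Apcs had 46.7, 32.6 and 5.62 FPKM, and Saa3, a serum amyloid of macrophages and epithelia, 2716, 1357 and 747 FPKM. Lipocalin 2 (Lcn2), which sequesters bacterial siderophores, went the other way with 3154, 10729 and 4783 FPKM (log2 ratio -0.60). C3 was nearly equal in grape-like and round-like organoids, with 980 and 921 FPKM, and had 2390 FPKM in the intermediate library.

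Of 23 cytochrome P450 genes, 17 were at least 2-fold higher in grape-like and 1 in round-like organoids (median log2 ratio 1.59). Beside Cyp2c29 and Cyp3a11, Cyp2b10 had 7.87, 3.82 and 0.0793 FPKM. The round-like value rests on a recovered count of at least 3 fragments, so no fold is given. Cyp1a2, the caffeine oxidase, had 86.8, 111 and 18.2 FPKM, and Cyp3a25 had 31.4, 30.7 and 3.42 FPKM. The exception on the round-like side, chosen after its values were seen, was Cyp2f2 with 0, 0 and 1.35 FPKM.

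In amino acid catabolism and the urea cycle, 6 of 17 genes were at least 2-fold higher in grape-like and 3 in round-like organoids, with a median of 0.92. At an FPKM of at least 5 the median was 0.07, and with a pseudocount of 5 it was 0.40. The listed genes summed to 447 FPKM in grape-like and 445 FPKM in round-like organoids. Tat, tyrosine aminotransferase, had 11.9, 7.28 and 1.30 FPKM. Glutamine synthetase (Glul) had 220, 117 and 95.1 FPKM. Of the 24 entries of the list, 23 were listed in the table, and 6 of these, Otc, Arg1, Hpd, Uroc1, Agxt and Bhmt, named after their values were seen, did not reach an FPKM of 1 in either library.

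Bile acid genes gave 6 of 9 at least 2-fold higher in grape-like and 2 in round-like organoids (median log2 ratio 1.93). The median was 0.66 with all genes above 0. The canalicular exporters Abcc2 and Abcb11 had 19.9, 36.1 and 2.94 FPKM and 3.87, 0.930 and 0.203 FPKM. Slc10a2, the apical bile acid importer of cholangiocytes and ileum, and Abcc4, a basolateral exporter, were higher in round-like organoids with log2 ratios of -1.47 and -1.33. The basolateral exporter Abcc3 hardly differed with 40.5 and 35.8 FPKM.

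In fatty acid oxidation, 7 of 20 genes were at least 2-fold higher in grape-like and 0 in round-like organoids (median 0.58). They included the peroxisomal enzymes Ehhadh and Acaa1b, with log2 ratios of 1.89 and 1.80. The mitochondrial enzymes Acadl and Hadha had log2 ratios of -0.11 and -0.08. Among 15 glucose and glycogen genes, 3 were past 2-fold, all on the grape-like side, among them Pygl (log2 ratio 2.53), which breaks down glycogen, and Fbp1 (2.30), an enzyme of gluconeogenesis. The glycolytic genes Eno1 and Tpi1 had log2 ratios of -0.87 and -0.77. The median of this list was -0.30, and it turned to 0.10 with all genes above 0 included.

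Sterol and fatty acid synthesis leaned to round-like organoids, with 4 of 26 genes at least 2-fold higher there, 1 in grape-like organoids and a median of -0.66. The desaturase Scd2 had 246, 448 and 596 FPKM. Its paralog Scd1 had the opposite order with 181, 166 and 89.1 FPKM. The intermediate library lay between both others for 23 of the 26 genes.

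Hepatocyte transcription factors did not follow the secreted genes. Of 18 that passed, 2 were at least 2-fold higher in grape-like and 3 in round-like organoids, with a median log2 ratio of -0.06, which was 0.01 under 2 other scalings. Creb3l3, a factor of lipid and acute phase genes, had 8.91, 16.0 and 0.923 FPKM, and Rxra, the partner of nuclear receptors, had 44.3, 34.8 and 17.4 FPKM. Foxa2, with 2.52, 11.8 and 20.1 FPKM, and Onecut1, with 1.30, 6.22 and 11.4 FPKM, both factors of liver and biliary development, were higher in round-like organoids. Hnf4a had 22.9, 79.1 and 36.5 FPKM (log2 ratio -0.65), so that it was lower in grape-like organoids. Cebpa was nearly equal with 29.8 and 28.9 FPKM. For 12 of the 18 genes, Hnf4a among them, the intermediate library was the highest.

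Genes of bile duct identity were higher in round-like organoids for 23 of 28 at the 2-fold threshold, and in grape-like organoids for 1, with a median log2 ratio of -2.0. Epcam, the surface antigen used to deplete ductal cells before culture, had 29.7, 197 and 275 FPKM. Cd24a, a surface glycoprotein of ductal and immature cells, had 60.2, 192 and 464 FPKM. The simple epithelial keratins Krt8, with 115, 557 and 506 FPKM, and Krt18, with 134, 571 and 491 FPKM, were at the round-like level in intermediate organoids. Keratin 7 (Krt7) had 4.05, 29.9 and 64.9 FPKM and the ductal factor Sox9 6.22, 17.7 and 24.8 FPKM. Osteopontin (Spp1) had 796, 2899 and 2107 FPKM. The gene on the grape-like side, chosen after its values were seen, was Aqp1 with 66.3, 31.0 and 23.3 FPKM, a water channel of ducts and also of endothelium.

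Cell junction genes moved with them, and 21 of 28 were at least 2-fold higher in round-like organoids (median -1.52). Cldn2, a pore-forming claudin, had 67.0, 342 and 406 FPKM, and E-cadherin (Cdh1) had 36.6, 174 and 186 FPKM. The desmosomal genes Dsp and Ppl had log2 ratios of -2.44 and -2.49. Occludin (Ocln) had 4.35, 19.4 and 24.1 FPKM. The 1 gene at least 2-fold higher in grape-like organoids was Cdh2, named after its values were seen, with 22.1, 12.7 and 5.71 FPKM. It is the cadherin of hepatocytes and mesenchyme.

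Of 20 genes of apical polarity and the lumen, 11 were at least 2-fold higher in round-like and 3 in grape-like organoids (median -1.70). Podxl, which keeps apical membranes apart, had 2.13, 7.60 and 19.1 FPKM, and the membrane linker Ezr had 47.8, 83.2 and 170 FPKM. The microvillus gene Vil1 was highest in intermediate organoids with 83.2 FPKM, against 12.5 and 45.4 FPKM. Anpep, an aminopeptidase of the canalicular membrane, went the other way with 27.9, 25 and 5.62 FPKM.

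Of 24 laminin, integrin and basement membrane genes, 8 were at least 2-fold higher in round-like and 4 in grape-like organoids (median 0.09). Genes on the round-like side had log2 ratios of -2.31 for the hemidesmosome integrin Itgb4, -2.18 for Itgb6, -1.85 for Itga3, -1.94 for Lamb3 and -1.83 for Lama5. Nid1, a basement membrane linker made by mesenchyme, was on the grape-like side with 51.0, 22.2 and 14.1 FPKM, and the collagen Col4a1 had 61, 17.1 and 55.4 FPKM.

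Secreted products of injured ducts were higher in round-like organoids for 12 of 23 and in grape-like organoids for 3 (median -1.20), and 14 of the 23 were highest in the intermediate library. The lectin Reg3b had 3.23, 3075 and 44.5 FPKM and the mucosal scavenger Dmbt1 0, 631 and 17.7 FPKM. Clusterin (Clu) was the most abundant gene of the round-like library with 8974 FPKM, against 10436 FPKM in intermediate and 2649 FPKM in grape-like organoids. Mmp7, matrilysin, had 835, 3692 and 2427 FPKM. Galectin 3 (Lgals3), which macrophages also express at a high level, was on the grape-like side with 311, 76.8 and 54.9 FPKM.

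Wnt genes were on the round-like side for 11 of 20 at 2-fold and on the grape-like side for 4 (median -1.07). The feedback genes Axin2, with 5.14, 14.8 and 26.2 FPKM, Rnf43, with 4.77, 24.8 and 27.8 FPKM, and Sp5, with 0.893, 5.01 and 12.1 FPKM, were lowest in grape-like organoids. The receptor Lgr5, which the study counts among progenitor markers, had 1.43, 5.87 and 7.94 FPKM. Genes on the grape-like side were the ligand Rspo3, which endothelial and stellate cells secrete, with 56.9, 9.85 and 9.07 FPKM, the pericentral hepatocyte genes Glul and Cyp2e1 with log2 ratios of 1.20 and 2.04, and the inhibitor Nkd1, named after its values were seen, with 1.48. All libraries had CHIR99021 and R-spondin1 in the medium.

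Of 16 Notch genes, 4 were at least 2-fold higher in round-like and 1 in grape-like organoids, beside 8.95% and 13.1% of all genes. Their median log2 ratio was -0.26. The ligands Dll1, with 1.12, 3.25 and 15.1 FPKM, Jag1, with 1.60, 4.11 and 4.37 FPKM, and Jag2, with 0.510, 1.97 and 2.41 FPKM, were higher in round-like organoids. The target Hes1 had 17.4, 30.5 and 27.6 FPKM (log2 ratio -0.64), and Lfng, which modifies the receptors, had 23.3, 9.58 and 5.64 FPKM. Among 21 YAP and Hippo genes, 4 were at least 2-fold higher in round-like organoids. They were the targets Ccn2, with 4.22, 19.4 and 77.7 FPKM, Ccn1, Ajuba and F3, with log2 ratios of -3.91, -1.52, -2.30 and -1.29 in this order. Axl and Fstl1, which mesenchyme and macrophages also express, were on the grape-like side with log2 ratios of 2.56 and 1.56.

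Proliferation genes were lower in grape-like organoids by a median log2 ratio of -0.71, and 7 of 34 passed 2-fold. Cdc20, the activator of the anaphase-promoting complex, had 23.3, 43.4 and 87.4 FPKM, and Plk1 had 18.5, 24.4 and 50.6 FPKM. Top2a had 54.2, 48.6 and 105 FPKM. The intermediate library was the lowest of all for 25 of the 34 genes and between the others for 9. The replication clamp Pcna was nearly equal with 196, 135 and 210 FPKM. Of 21 cell cycle inhibitors and p53 targets, 1 passed 2-fold in each direction, which were Sesn1 (log2 ratio 1.57) and the desmosomal p53 target Perp (-2.50), and Cdkn1a had 60.6, 54.3 and 56.9 FPKM.

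Stress and redox genes were mixed. Of 24 NRF2 genes, 8 were at least 2-fold higher in round-like and 1 in grape-like organoids (median -0.67). Beside Gpx2, Gsta4 had 76.6, 390 and 336 FPKM and the pentose phosphate enzyme Tkt 75.2, 141 and 233 FPKM. Hmox1, haem oxygenase of iron-recycling macrophages, was the exception with 252, 99.9 and 52.6 FPKM. Of 26 unfolded protein and integrated stress genes, 4 passed 2-fold towards round-like organoids, led by the serine synthesis enzymes Phgdh, with 17.5, 48.4 and 83.6 FPKM, and Psat1, with 37.7, 85.6 and 135 FPKM. The chaperones Hspa5 and Hsp90b1 had log2 ratios of -0.27 and -0.40. Of 21 immediate early genes, 5 were at least 2-fold higher in grape-like and 2 in round-like organoids, with Klf2 at 1.81 and Myc at -1.45.

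Several lists held mostly genes within 2-fold. None of 33 nuclear genes of oxidative phosphorylation and none of 41 cytosolic ribosomal protein genes passed 2-fold, with medians of -0.35 and -0.56. All 41 ribosomal genes nonetheless had a ratio below 0, from -0.90 to -0.29. Their FPKM together made up 5.59% of the grape-like, 6.42% of the intermediate and 7.94% of the round-like library. Of 22 interferon-stimulated genes, 4 were at least 2-fold higher in grape-like organoids, beside 13.1% of all genes, led by Ifit3 (log2 ratio 1.97). Ratios were above 0 for 16 of the 22, with a median of 0.35 beside -0.13 over all genes. Of 16 housekeeping genes and of 13 mitochondrially encoded genes, 1 each was at least 2-fold higher in grape-like organoids, with medians of -0.31 and 0.25.

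Of 30 macrophage genes, 29 were at least 2-fold higher in grape-like organoids, with a median log2 ratio of 2.48 and quartiles of 2.21 and 2.67. Their FPKM made up 3.55% of the grape-like, 1.08% of the intermediate and 0.672% of the round-like library. Lyz2, lysozyme of myeloid cells, was the second most abundant gene of the grape-like library with 5942 FPKM. The Kupffer cell receptors Clec4f, with 79.3, 13.4 and 10.3 FPKM, and Vsig4, with 555, 105 and 68.4 FPKM, and the complement component C1qa, with 771, 172 and 112 FPKM, were all lowest in round-like organoids. For 27 of the 30 genes, the intermediate library was between the others. Cd14, named after its values were seen and also expressed by epithelium, was the gene not past 2-fold, with a log2 ratio of -0.93.

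Lysosomal genes, which macrophages express at a high level, showed the same picture with 24 of 30 at least 2-fold higher in grape-like organoids and 0 in round-like organoids (median 1.61). The cathepsins Ctsd, with 2777, 945 and 693 FPKM, and Ctsb, with 2184, 699 and 458 FPKM, and prosaposin (Psap), with 1905, 680 and 478 FPKM, were the most abundant. Among 17 iron genes, 12 were at least 2-fold higher in grape-like organoids (median 1.32). Ferritin light chain (Ftl1) was the most abundant gene of the grape-like library with 6815, 3322 and 2733 FPKM. The iron exporter Slc40a1 had 161, 38.9 and 29.0 FPKM, and hepcidin (Hamp), the hepatocyte hormone that closes it, had 93.8, 41.9 and 21.1 FPKM.

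Stellate cell and mesenchymal genes gave 22 of 25 at least 2-fold higher in grape-like organoids and 1 in round-like organoids, with a median of 1.91. Decorin (Dcn) had 658, 157 and 102 FPKM, lumican (Lum) 223, 57.7 and 40.2 FPKM and the collagen Col3a1 502, 120 and 140 FPKM. The growth factor receptor Pdgfra had 50.3, 11.2 and 9.27 FPKM. The exception, chosen after its values were seen, was Thy1 with 0, 0.157 and 3.55 FPKM. Among sinusoidal endothelial genes, 17 of 21 were at least 2-fold higher in grape-like organoids and 0 in round-like organoids (median 1.93), at lower levels. The scavenger receptors Stab1 and Stab2 had 91.8, 39.6 and 18.3 FPKM and 18.6, 6.80 and 2.85 FPKM, and the receptor Kdr had 13, 4.97 and 1.95 FPKM.

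Secreted signals and proteases were divided between both sides. Of 28 chemokines and cytokines, 12 were at least 2-fold higher in grape-like and 6 in round-like organoids (median 0.66). Ccl6, with 546, 142 and 109 FPKM, Ccl7, with 262, 74.4 and 75.5 FPKM, and Ccl2, with 493, 174 and 170 FPKM, were on the grape-like side. The neutrophil chemokine Cxcl5, with 189, 490 and 462 FPKM, was on the round-like side. Of 22 matrix proteases and inhibitors, 14 were on the grape-like side at 2-fold and 3 on the round-like side, with Mmp12 (log2 ratio 2.72) and Mmp2 (2.56) against Mmp7 (-1.54). Of 6 class II antigen presentation and costimulation genes that passed, 4 were on the grape-like side (median 1.56, and 0.48 with all genes above 0), with the costimulatory ligand Cd86 at 17.5, 4.18 and 3.89 FPKM and Cd74 at 15, 9.43 and 4.42 FPKM.

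Fetal liver genes gave 6 of 13 on the grape-like and 4 on the round-like side at 2-fold. H19 and its imprinted neighbour Igf2, with 16.5, 29.5 and 1.30 FPKM, did not share their order, since Igf2 was highest in intermediate organoids. Gpc3, a cell surface proteoglycan, was higher in round-like organoids with 18.0, 80.6 and 50.4 FPKM. Of 6 squamous and stress keratin genes, 3 were on the round-like and 1 on the grape-like side (median -0.99, and -0.11 with all genes above 0). The former included Ly6d with 226, 658 and 789 FPKM and Sfn with 0, 3.38 and 6.81 FPKM.

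**Figure D4:**
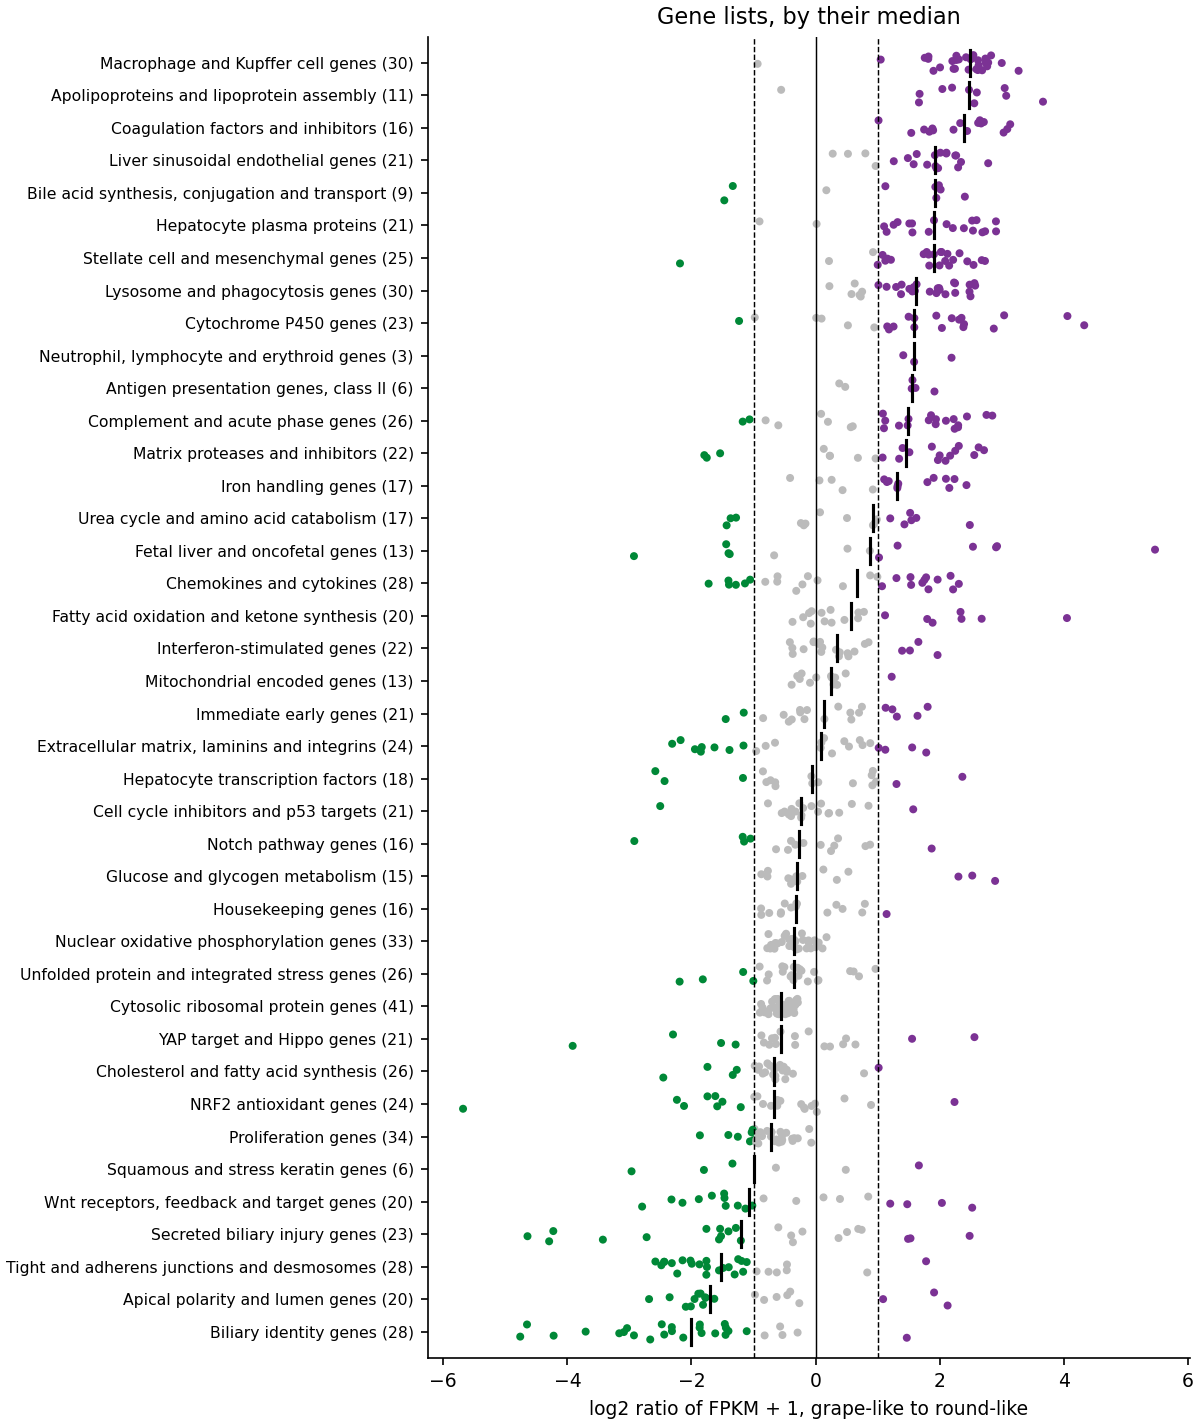
Log2 ratio of FPKM + 1, grape-like to round-like (x), for each passing member of the gene lists with at least 3 such members (number in parentheses), ordered by their median (black bar). Purple and green points are at least 2-fold higher in grape-like or round-like organoids, between the dashed lines are smaller differences, and vertical scatter only separates points. Macrophage genes have the highest median, 2.48, and biliary identity genes the lowest, -2.0.

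The intermediate library was not a uniform mean of the others. Of the genes at least 2-fold higher in grape-like organoids, 78.08% had an intermediate level between both, 8.17% above both and 13.75% below both. Of those at least 2-fold higher in round-like organoids, 79.57% lay between, 16.74% above and 3.69% below. On the log2 scale, the intermediate library was nearer to grape-like than to round-like organoids for 19.95% of the former and 30.96% of the latter. Past 2-fold, 2042 genes differed between grape-like and intermediate and 728 between intermediate and round-like organoids.

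Groups of genes took different places in it. For the plasma protein, apolipoprotein and coagulation lists together, 34 of 48 passing genes were highest in intermediate organoids, and their listed genes took 3.46% of the FPKM in grape-like, 5.44% in intermediate and 0.924% in round-like organoids. For the macrophage, endothelial and stellate lists, 3 of 75 were highest in intermediate organoids, with 4.50%, 1.36% and 0.884% of the FPKM. The biliary, junction and apical lists took 0.572%, 1.80% and 1.88%. So the share of hepatocyte secreted genes was higher in the intermediate than in the other libraries, while its share of biliary genes was near that of round-like organoids. Its share of macrophage, endothelial and stellate genes was above that of round-like organoids, but closer to it than to that of grape-like organoids.

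**Figure D5:**
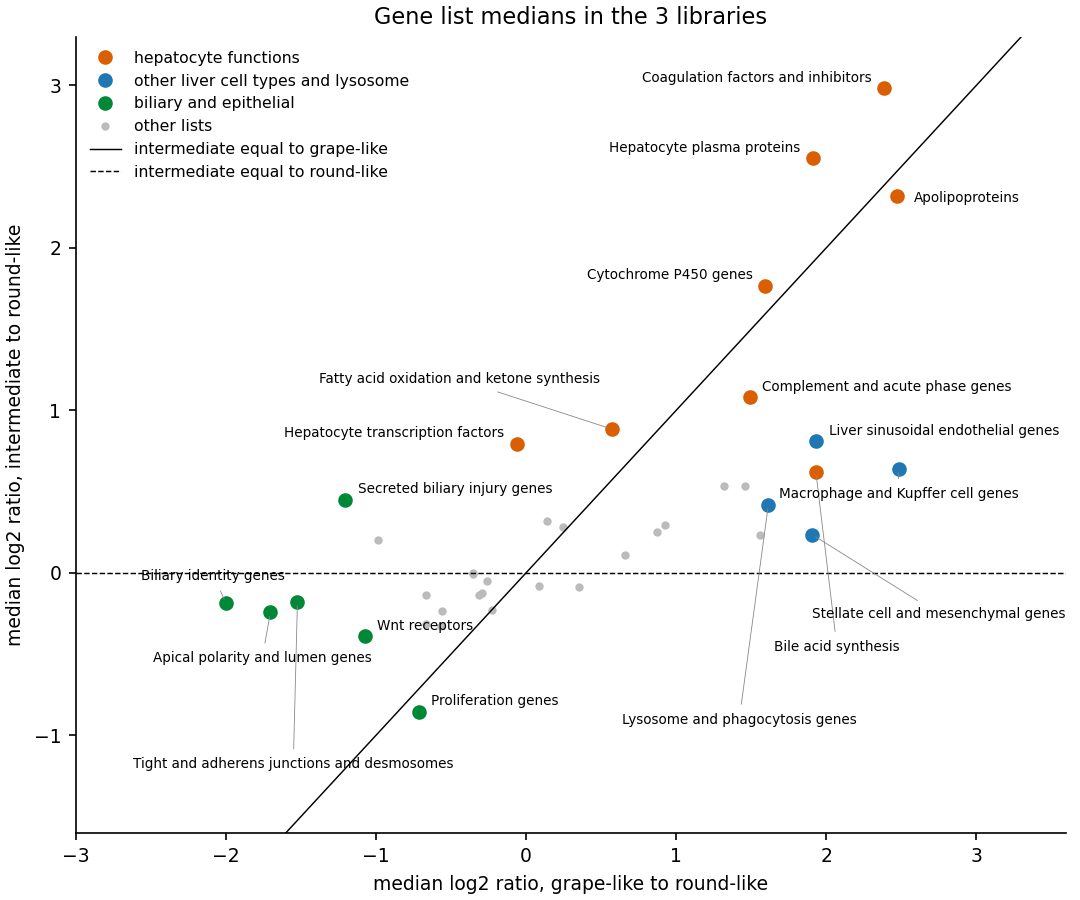
Median log2 ratio to the round-like library of each gene list with at least 6 passing members, in the grape-like (x) and the intermediate library (y). On the solid line both are equal, and on the dashed line the intermediate equals the round-like library. Coagulation (2.39 and 2.98) and plasma protein lists (1.91 and 2.56) lie above the solid line, macrophage genes (2.48 and 0.64) far below it, and biliary identity genes (-2.0 and -0.18) near the dashed line.

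The other tables of the series were normalized separately, so levels in them are set beside these without a fold change. The 9 cholangiocyte organoid (Cho-Orgs) libraries, grown from EpCAM-positive cells, correlated best with round-like organoids over the 12417 genes. The Spearman correlation at P0 (3 libraries) was 0.719 to 0.725 with grape-like, 0.872 to 0.878 with intermediate and 0.881 to 0.897 with round-like organoids. At P10 it was 0.639 to 0.640, 0.786 and 0.827 to 0.828. At P0, all 15 genes at the top of the round-like side and 12 of the 15 at the top of the grape-like side had over 1 FPKM in each Cho-Orgs library. The exceptions were Rgs1, Ear1 and Cd163. Among the round-like genes, Adgrg7 was at 53.9 to 71.5 FPKM and Krt19 at 996 to 1141 FPKM. Alb also stood at 4526 to 5254 FPKM at P0 and at 0.534 to 0.648 FPKM at P10. Clec4f was at 0 in all 9 Cho-Orgs libraries and Lyz2 at 9.64 to 15.8 FPKM at P0, far under their levels in each library of the 3 shapes. Not all macrophage markers were this low. Cd68 was at 26.1 to 33.2 FPKM at P0, 71.8 to 76.9 FPKM at P5 and 9.20 to 9.88 FPKM at P10 in Cho-Orgs.

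The 12 libraries labelled primary hepatocytes and Hep-Orgs P1, P5 and P10 had correlations of 0.560 to 0.565 with grape-like, 0.699 to 0.705 with intermediate and 0.732 to 0.737 with round-like organoids over 11744 shared genes. In that table, Alb was at 106 to 129 FPKM and Krt19 at 229 to 247 FPKM in all 12 libraries, those labelled primary hepatocytes included. The markers thus go against that label, and no comparison with primary hepatocytes is drawn here. Without the 3 libraries labelled primary hepatocytes, the correlations were 0.563 to 0.565, 0.702 to 0.705 and 0.734 to 0.737. This does not remove the limit, since the libraries labelled Hep-Orgs had nearly the same marker levels. Over all 12 libraries, Epcam was at 262 to 281 FPKM and Apoa1 at 2.99 to 4.37 FPKM. The Hep-Orgs labels of that table are thus in doubt as well.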

How the data were processed

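The authors deposited FPKM per gene for the 3 libraries of the shapes in a table of their own. The study describes Smart-Seq for them and the labels a poly(A) preparation. Per the submitters' processing notes, the genome build was mm10 and the tools were featureCounts 2.0.3 and edgeR 3.40.2. The aligner and the annotation release are not given in the sources used here. Fragments per gene were worked back from the FPKM and library totals and came out whole for 99.99% of expressed genes, within a tolerance of 0.0002. They are the smallest whole numbers that fit and summed to 95.5% to 96.4% of the library totals, so counts are given as "at least".

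Log2 ratios of FPKM + 1 were taken for genes that reached an FPKM of 1 in either library, and a difference of at least 2-fold was counted. With 1 library a side, there was no test. The named genes were Alb, Afp, Hnf4a, Krt7, Krt19 and Sox9, the 15 genes with the largest ratio in each direction at an FPKM of at least 10 in the higher library (unnamed gene models passed over), the 10 most abundant genes of each library, and in each gene list up to 6 members by difference and 4 by level. Members and lists were chosen with earlier results of these data known. Python 3.11.15, pandas 2.3.3 and scipy 1.17.1 were used, and the recovery of fragments was checked on simulated data. Other pseudocounts (0.1 and 5), filters, scalings and a 4-fold threshold were tried. Some genes are not reported here.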

Additional observations from a re-analysis of the deposited data

How the results depend on the processing

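No paired analysis was possible because each shape is 1 library. Of 278 gene list medians computed under other settings, 265 stayed within the interval of the main median and 13 did not. For all but the shortest lists, this is a 95% binomial interval of the median across list members, which are not replicates. It was wide for some lists, as for bile acid genes (-1.33 to 2.02), so staying within it shows little. With a pseudocount of 0.1, the median log2 ratio was 2.72 for coagulation, 2.13 for complement and acute phase, 2.62 for bile acid, 1.94 for class II and 2.33 for sinusoidal endothelial genes. With a pseudocount of 5, it was 1.68 for coagulation, 1.06 for cytochrome P450, -1.16 for junction, 0.78 for neutrophil, lymphocyte and erythroid and 1.09 for sinusoidal endothelial genes, and the counts past 2-fold were 809 and 511. Both effects follow from the construction, since a pseudocount weighs most on low levels. With all genes above 0, the neutrophil, lymphocyte and erythroid median was 0.35, from 1.59 over the 3 genes that passed. After rescaling to TPM, the bile acid and sinusoidal endothelial medians were 2.17 and 2.19. Wide intervals also hold large moves. The bile acid median was 0.77 with a pseudocount of 5, 0.66 with all genes above 0 and 1.05 at an FPKM of at least 5. The class II median was 0.64 with a pseudocount of 5 and 0.48 with all genes above 0, and the complement and acute phase median 0.85 with a pseudocount of 5. At a 4-fold threshold, 403 and 270 genes were counted. Signs turned in 3 medians of 2 lists, namely glucose metabolism with all genes above 0 (0.10) and hepatocyte transcription factors under median-ratio size factors (0.01) and without the 50 most abundant genes (0.01). None of the 245 values of 35 named genes and none of the 19 lists with a median of at least 1 either way changed sign. The share of 2-fold differences that were higher in grape-like organoids ran from 58.9% to 63.5%.

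The main limit is 1 library a shape, which gives no spread between organoids, cultures or animals. Counting error is small at these depths, and error from any amplification is not measured by a value here. Short genes had lower ratios, with a median of -0.28 for the 770 genes of the shortest class and of -0.06 for the 1375 genes of the longest.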

Other observations

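Transcription factors other than the hepatocyte list were not described above, and the genes named here were chosen after their values were seen. Of 912 annotated factors that passed, 73 (8.0%) were at least 2-fold higher in grape-like and 64 (7.02%) in round-like organoids. Both shares were below those over all 12417 genes, which were 13.1% and 8.95%. On the round-like side, Klf5, a factor of proliferating epithelium, had 1.89, 15.1 and 39.1 FPKM in grape-like, intermediate and round-like organoids. The epithelial factors Ehf, with 16.9, 76.6 and 146 FPKM, and Grhl2, with 0.581, 6.24 and 10.1 FPKM, had the same order. Gata5 had 1.07, 0.668 and 17.5 FPKM, so that only the round-like library was high. The factors furthest to the grape-like side included Spi1 and Irf8 of macrophages and Wt1 and Tcf21 of mesenchyme, beside the hepatocyte factor Creb3l3. Markers of macrophages and stellate cells were higher in the same library, and their part in this was not tested.

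Genes not coding for protein differed more often than coding genes. Of 361 that passed, 70 (19.39%) were at least 2-fold higher in grape-like and 50 (13.85%) in round-like organoids, against 12.93% and 8.80% of 12056 coding genes. The difference between these shares was not tested.

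Lgals4 and Tff3, named after their values were seen, are intestinal-type epithelial genes that were highest in the intermediate library among the 3 shapes. Lgals4 had 4.09, 340 and 5.56 FPKM and Tff3 1.96, 75.2 and 0.0542 FPKM. Cho-Orgs at P0 had 420.5 to 896 FPKM of Lgals4 and 262 to 1131 FPKM of Tff3, in a table normalized separately.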
